A study of Mus musculus with 185 samples.

Results

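The inhibitors, feedback genes and subunits of NF-kappaB measured here are 9 of the 57010 genes in the table of counts, and they were followed in the brain of fasted, chow-fed and high-fat-fed mice. They are the classical inhibitors Nfkbia, Nfkbib and Nfkbie, the atypical inhibitor family member Nfkbiz, the ubiquitin-editing enzyme Tnfaip3, and the genes of the subunits, Nfkb1, Nfkb2, Rela and Relb. They were chosen by name with earlier results of these data known, among them the comparison of fasted with chow mice at 24 h, so values of that comparison are a description. All 9 passed the filter on low counts in each fit.

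NF-kappaB is a family of paired transcription factors. In resting cells the inhibitors of kappaB (IkB proteins) hold the pairs in the cytoplasm, and signals from cytokine receptors or pattern receptors activate a kinase that marks the inhibitor for destruction, so that the pair enters the nucleus. Several of the genes that it then switches on, Nfkbia and Tnfaip3 among them, encode proteins that end the signal, which makes them feedback genes. In brain, the system is best known in glia and vessels during inflammation.

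All mice were male C57BL/6 J, an inbred strain, and were 8 weeks old. In the 16 h study, 18 mice were pair-housed, and 6 each stayed on chow, were fasted, or were switched to a high-fat diet (HFD). Diets were assigned there by cage, so cage mates are not independent units of assignment. In the 24 h study, mice were housed singly, and 9 stayed on chow while 10 were fasted. For each mouse, 5 pieces of brain were sequenced: hypothalamus, hippocampus, superior colliculus and inferior colliculus in both studies, with prefrontal cortex at 16 h and zona incerta at 24 h. The 5 libraries of a mouse were added up, since the table of counts ties a library to its mouse and not to its region.

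The promoter of Nfkbia is shown because this gene carried the largest difference among the 9. Nfkbia (ENSMUSG00000021025) lies on the minus strand of chromosome 12 of GRCm39, from 55535332 to 55539432. The sequence below covers the 250 bases before the start of its canonical transcript, chr12:55539433-55539682 on the minus strand, and no annotated exon lies in it. Capitals mark a match to the kappaB consensus, a motif of 10 bases that opens with a pair of G and a pair of purines, leaves 2 bases free, and ends with a pair of pyrimidines and a pair of C, so that it reads alike on both strands.
Nfkbia: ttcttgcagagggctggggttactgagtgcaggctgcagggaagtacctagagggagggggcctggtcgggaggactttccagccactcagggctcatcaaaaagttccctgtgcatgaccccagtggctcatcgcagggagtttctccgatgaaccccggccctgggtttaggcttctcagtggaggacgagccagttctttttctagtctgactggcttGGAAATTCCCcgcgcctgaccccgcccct
The match starts 29 bases before the transcript start. In the windows of the same length, 4 of the 9 genes held a match, as did 2170 of the 21770 protein-coding genes, or 10.0%. The other matches are shown with the bases around them, since Nfkbie, Tnfaip3 and Relb, unlike Nfkbia, were not past the threshold at 24 h.
Nfkbie: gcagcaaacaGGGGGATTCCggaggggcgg
Tnfaip3: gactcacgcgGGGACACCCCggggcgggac
Relb: gtgagcagcgGGGGTTTTCCcattcccttt
These stretches lie on GRCm39 at chr17:45866510-45866539 on the plus strand for Nfkbie, and on the minus strand at chr10:18891264-18891293 for Tnfaip3 and chr7:19363441-19363470 for Relb. The matches start 86, 97 and 37 bases before the transcript start. Nfkbib, Nfkb1 and Nfkb2 had none in their window, nor did Nfkbiz and Rela, which passed the threshold at 24 h. This holds for the start of the canonical transcript only. The windows of Nfkbiz, Nfkb1, Nfkb2 and Relb were not found among RefSeq promoters. That of Nfkbiz, at chr16:55642920-55643169, lies inside the gene, which runs from 55631738 to 55659262. Windows at other transcript starts were not searched. A match is a run of letters and not a measured binding site.

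Counts per mouse ran from 57962237 to 161577364, and of the 9 genes Nfkbie was the thinnest, with at most 439 counts in a mouse. Values are given as CPM, the counts of a gene in the sum of a mouse scaled to 1000000 counts of the TMM-adjusted library. In all, 27 libraries fell below limits on depth and gene number and were kept in the sums. The authors labelled 29 libraries as failing alignment, among them a 24 h block that the paper discarded, and these were also kept. Library totals ran from 2994 to 65973281 counts, and 24 h mice had 3 to 5 libraries above the limits. The sum of a mouse thus weights its regions by depth, and differently from mouse to mouse. Notes of the submitters place the superior colliculus of chow mouse 1423 and of fasted mouse 1454 in each other's tubes, and the superior colliculus read files of mice 1423 and 1455 carry each other's numbers, so log2 fold changes of the 9 genes at 24 h were also computed without these 3 mice. According to the methods of the study the metadata of the libraries of mice 1423 and 1454 were corrected for the exchange, and whether the table of counts carries that correction was not tested. Neuron markers summed to between 2682 and 4611 CPM in each of the 37 mice.

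At 24 h, Nfkbia, the gene of IkB alpha, was 3.06-fold higher in fasted than in chow mice. Its level ran from 11.3 through a median of 12.4 to 19.4 CPM in the 9 chow mice. In the 10 fasted mice it ran from 30.8 through a median of 40.2 to 48.9 CPM. Every fasted mouse lay above every chow mouse, and the chow mouse nearest to the fasted ones was mouse 1423. The log2 fold change was 1.61 ± 0.10 (SE), larger in size than that of 99.6% of the 29011 genes tested. Groups that did not overlap, in either direction, were found for 1.6% of the genes tested, and Nfkbia was the only one of the 9. Without mice 1423, 1454 and 1455 the log2 fold change was 1.75, and with the clock time of the start as a covariate it was 1.61.

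**Figure D1:**
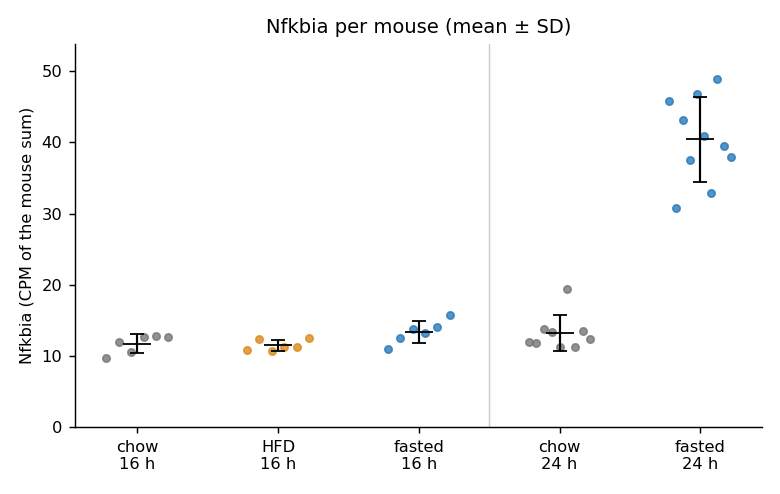
Nfkbia in CPM of the mouse sum (vertical axis, linear from 0) for each of the 37 mice, by diet and study; the horizontal bar and whiskers are the mean and SD. The 10 fasted mice of the 24 h study sit between 30.8 and 48.9 CPM, and all other mice between 9.74 and 19.4.

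The difference was also present library by library, outside mice 1423 and 1454 and among libraries above the limits. In the 30 chow libraries above the limits, without mice 1423 and 1454, Nfkbia ran from 10.2 to 16.8 CPM with a median of 12.9. In the 34 corresponding libraries of fasted mice it ran from 23.6 to 67.04 CPM with a median of 39.7. All 34 fasted libraries lay above all 30 chow libraries, though libraries of a mouse are not replicates. Chow mouse 1423 had one library at 36.1 CPM beside 12.2, 14.2 and 12.2. Fasted mouse 1454 had one at 10.7 CPM beside 33.4, 26.9 and 36.8. Which region these libraries hold is not given by the headings, and whether they are the exchanged ones was not tested. Within the other mice with libraries above the limits, the highest library was at most 2.07 times the lowest, in mouse 1444.

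**Figure D2:**
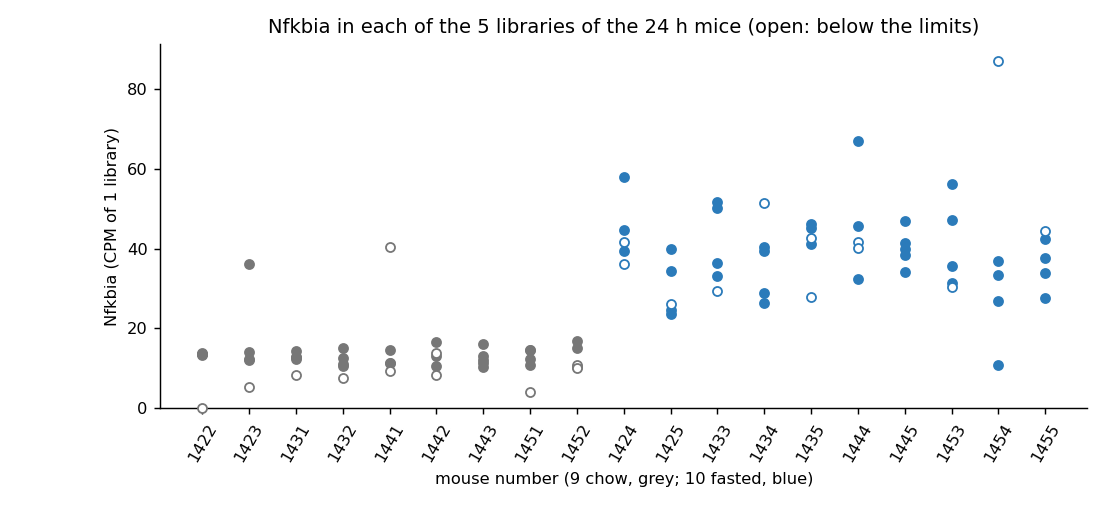
Nfkbia in CPM of a single library (vertical axis, linear from 0) for the 9 chow mice (grey) and the 10 fasted mice (blue) of the 24 h study; open circles are libraries below the limits on depth and gene number. Without mice 1423 and 1454 the filled circles of the diets do not overlap. Mouse 1423 has a filled circle at 36.1 CPM, mouse 1454 one at 10.7 CPM and chow mouse 1441 an open circle at 40.5 CPM.

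At 16 h, Nfkbia did not pass the threshold in any comparison of diets. It ran from 9.74 through a median of 12.4 to 12.9 CPM on chow, from 10.8 through 11.3 to 12.6 CPM on HFD, and from 11.0 through 13.5 to 15.7 CPM in fasted mice (n = 6 each). The 3 diets overlapped. Fasted mice differed from chow mice by 0.19 ± 0.08 on the log2 scale (SE, edgeR's quasi-likelihood test, adjusted p = 0.630) and from HFD mice by 0.21 ± 0.08 (SE, edgeR's quasi-likelihood test, adjusted p = 0.301). Both fasting comparisons share the fasted mice, and both comparisons with chow share the chow mice. HFD mice differed from chow mice by -0.03 ± 0.08 (SE, edgeR's quasi-likelihood test, adjusted p = 0.927). In the 3 rounds in which cages were started, the log2 ratio of the mean of 2 fasted mice to that of 2 chow mice was 0.11, 0.22 and 0.22.

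The fasting effect on Nfkbia at 24 h exceeded that at 16 h by 1.43 ± 0.14 on the log2 scale (SE), larger in size than for 99.3% of the 30849 genes in that comparison. Nfkbia was the only one of the 9 past the threshold, against 1.7% of all genes. The value contains the 24 h comparison that was known when the genes were chosen. Duration of the fast, housing, clock time of the start, sequencing run, read length, hemisphere and one of the brain regions differed between the studies. These cannot be told apart. Mitochondrial genes held 3.78% to 4.98% of the counts of a mouse at 16 h and 8.57% to 16.7% at 24 h.

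Over the 9 genes, 3 passed the threshold at 24 h, Nfkbia, Nfkbiz and Rela, and all were higher in fasted mice. Of all 29011 genes tested, 11.4% passed, 5.78% higher and 5.62% lower. Without mice 1423, 1454 and 1455 the number was again 3, with log2 fold changes of 1.75 for Nfkbia, 0.37 for Nfkbiz and 0.21 for Rela. The median log2 fold change of the 9 was 0.17 with all mice, beside -0.0044 over all genes. At 16 h none of the 9 passed in any comparison. All genes gave 0% for fasted against chow, 0% for HFD against chow and 0.219% for fasted against HFD. By edgeR's quasi-likelihood test, 2267 and 2914 genes had an unadjusted p under 0.05 in the comparisons of fasting and of HFD with chow, and by DESeq2 19 and 5 genes passed. Among the 9, Nfkbia had an unadjusted p under 0.05 for fasted against chow, none did for HFD against chow, and Nfkbia and Tnfaip3 did for fasted against HFD.

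**Figure D3:**
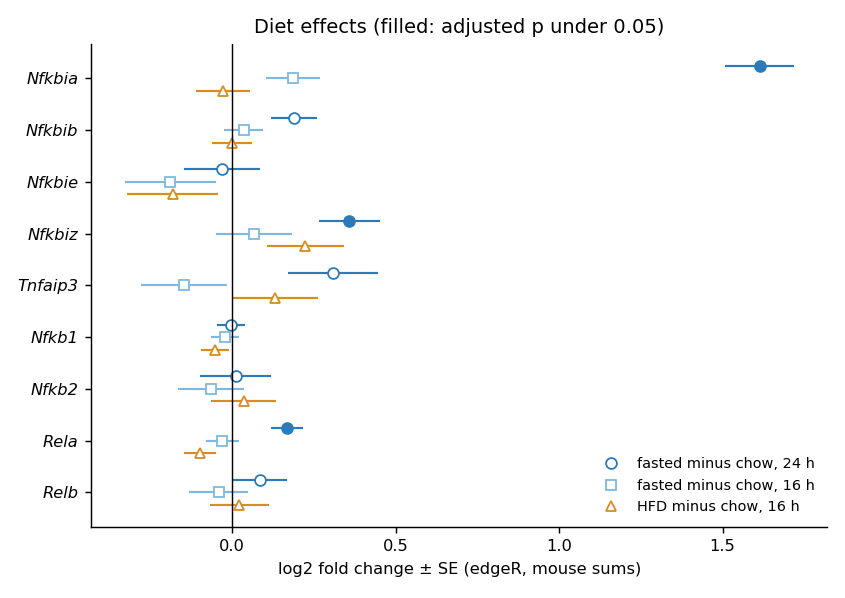
Log2 fold change with its SE (horizontal axis) of the 9 genes for fasted minus chow at 24 h (circles), fasted minus chow at 16 h (squares) and HFD minus chow at 16 h (triangles); filled symbols passed the threshold over all genes. Nfkbia at 24 h lies at 1.61, and all the other values lie between -0.19 and 0.36.

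The other classical inhibitors did not pass the threshold at 24 h. Nfkbib, the gene of IkB beta, ran from 10.9 through a median of 12.4 to 13.8 CPM on chow and from 11.5 through 13.7 to 17.7 CPM in fasted mice. The diets overlapped, and the log2 fold change was 0.19 ± 0.07 (SE). It passed when fasted mouse 1445 was left out, with a log2 fold change of 0.22. Nfkbib shares 778 bases of chromosome 7 with Sirt2 on the opposite strand, whose counts were 801% of its own, and the strand used for counting is not given in the sources used here.

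Nfkbie, the gene of IkB epsilon, was low and flat, from 1.94 through 2.2 to 3.20 CPM on chow and from 1.84 through 2.13 to 3.12 CPM in fasted mice at 24 h. Its log2 fold change was -0.03 ± 0.12 (SE). At 16 h, the log2 difference from chow was -0.19 ± 0.14 in fasted mice (SE, edgeR's quasi-likelihood test, adjusted p = 0.774) and -0.18 ± 0.14 on HFD (SE, edgeR's quasi-likelihood test, adjusted p = 0.674). One chow mouse, mouse 6 of round 3, stood at 4.25 CPM there, with the next at 2.73. In rounds 1, 2 and 3 the log2 ratio to chow was 0.01, -0.10 and -0.46 for fasted mice, and 0.03, 0.06 and -0.65 for HFD mice. Among 16 h chow libraries above the limits, the highest stood at 13.6 CPM beside a median of 2.30. Whether it belongs to mouse 6 was not tested.

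Nfkbiz encodes IkB zeta, a nuclear protein that modifies which NF-kappaB targets are switched on. At 24 h it ran from 5.45 through a median of 6.54 to 8.66 CPM on chow and from 7.05 through 8.42 to 11.3 CPM in fasted mice. The diets overlapped, and the log2 fold change was 0.36 ± 0.09 (SE). At 16 h it ran from 7.62 through 8.67 to 10.3 CPM on chow, from 8.76 through 10.0 to 13.2 CPM on HFD, and from 6.86 through 9.53 to 12.2 CPM in fasted mice. HFD mice differed from chow mice by 0.22 ± 0.12 on the log2 scale (SE, edgeR's quasi-likelihood test, adjusted p = 0.532), and fasted mice by 0.07 ± 0.12 (SE, edgeR's quasi-likelihood test, adjusted p = 0.911). The HFD log2 ratio was 0.47, 0.19 and 0.03 in rounds 1, 2 and 3.

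Tnfaip3 encodes A20, which removes ubiquitin chains that carry the signal to the IkB kinase. At 24 h it ran from 2.62 through a median of 3.44 to 4.22 CPM on chow and from 3.03 through 3.76 to 6.44 CPM in fasted mice, with a log2 fold change of 0.31 ± 0.14 (SE) that did not pass. At 16 h the medians were 5.52 CPM on chow, 5.49 on HFD and 5.03 in fasted mice. The log2 difference between fasted and HFD mice was -0.28 ± 0.13 (SE, edgeR's quasi-likelihood test, adjusted p = 0.433).

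Among the subunits, Rela alone passed at 24 h. It encodes p65, the subunit that carries the activation domain of the most common pair. It ran from 20.1 through a median of 21.0 to 22.7 CPM on chow and from 21.7 through 24.2 to 27.5 CPM in fasted mice. The diets overlapped, and the log2 fold change was 0.17 ± 0.05 (SE), a 1.12-fold difference. The call was lost when any one of 8 mice was left out: chow mice 1422, 1441, 1442, 1443 and 1452, with log2 fold changes of 0.16, 0.16, 0.17, 0.17 and 0.16, and fasted mice 1424, 1434 and 1444, with 0.14, 0.16 and 0.16. It was also lost with no filter on low counts (0.17) and with limma (0.16). At 16 h, Rela differed from chow by -0.03 ± 0.05 in fasted mice (SE, edgeR's quasi-likelihood test, adjusted p = 0.909) and by -0.10 ± 0.05 on HFD (SE, edgeR's quasi-likelihood test, adjusted p = 0.525).

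The other subunit genes lay close to 0 change at 24 h. Nfkb1, the gene of the p105 precursor that is cut to p50, had medians of 35.9 CPM on chow and 35.1 CPM in fasted mice, and a log2 fold change of -0.0042 ± 0.043 (SE). Nfkb2, the gene of the p100 precursor that is cut to p52, had medians of 4.19 CPM in both, and a log2 fold change of 0.01 ± 0.11 (SE). Nfkb2 overlaps Psd on the opposite strand by 3291 bases, and the counts of Psd were 5110% of its own, so with the strand of counting not given, reads of Psd in the value of Nfkb2 cannot be told apart. Relb, which pairs with p52, had medians of 3.798 and 3.735 CPM, and a log2 fold change of 0.09 ± 0.08 (SE). At 16 h, the log2 differences of these 3 genes from chow lay between -0.06 and 0.04 for both diets.

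**Figure D4:**
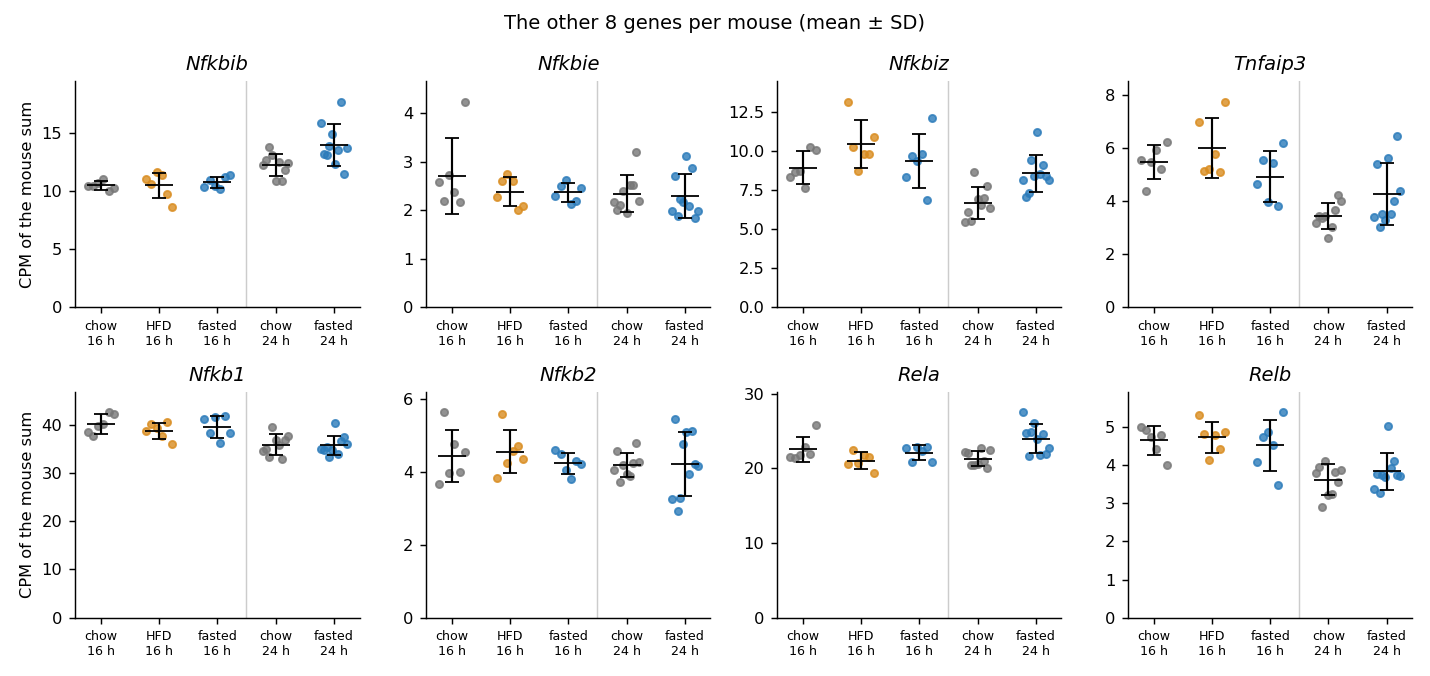
CPM of the mouse sum (vertical axis, linear from 0, a scale for each panel) of the other 8 genes in each of the 37 mice, by diet and study; bars and whiskers are the mean and SD. In each panel the fasted and chow mice of the 24 h study overlap; Nfkbiz has medians of 6.54 and 8.42 CPM there and Nfkb1 of 35.9 and 35.1.

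Levels of different genes can be set side by side only per length. In CPM per kb of the canonical transcript, the 24 h chow mice held Nfkbib highest at 8.95 ± 0.70, then Nfkbia at 8.37 ± 1.59, Rela at 7.85 ± 0.37 and Nfkb1 at 7.61 ± 0.46 (SD, n = 9). Neighbours among these 4 overlapped in their mice. With the strand of counting not given, reads of Sirt2 in the level of Nfkbib and of Psd in that of Nfkb2 cannot be told apart. Nfkbiz followed at 1.66 ± 0.25, below all 4 without overlap, and Relb at 1.06 ± 0.12, Nfkbie at 0.953 ± 0.156, Nfkb2 at 0.620 ± 0.050 and Tnfaip3 at 0.497 ± 0.070. Relb overlapped with Nfkbie and Nfkb2 with Tnfaip3, while Nfkbie and Nfkb2 did not overlap. In the 24 h fasted mice Nfkbia was highest, at 25.6 ± 3.76 CPM per kb (SD, n = 10), with no overlap with Nfkbib, the next, at 10.2 ± 1.31. Nfkbia made up 20.3% to 29.3% of the summed level per kb of the 9 genes in chow mice and 38.2% to 48.1% in fasted mice. At 16 h its share had medians of 20.1% on chow, 19.2% on HFD and 22.2% in fasted mice.

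Over the 37 mice of both studies, the 9 genes did not vary as a block within groups. After the mean of each of the 5 groups had been subtracted from log2 CPM, the 36 pairs of genes had a Pearson r between -0.32 and 0.66 over 37 mice, with a median of 0.18, and the highest was that of Nfkbiz with Relb. The genes most like Nfkbia by this measure, among 18843, were Ddit4 (r = 0.83), an inhibitor of the growth kinase mTORC1, Klf15 (0.80), a transcription factor of fasting metabolism, Mxd4 (0.78), Sgk1 (0.78), a kinase of salt and hormone responses, and Arl4d (0.76). In the 24 h study alone these r values ran from 0.76 to 0.85, and at 16 h alone from 0.59 to 0.80. Without mice 1423 and 1454 they ran from 0.69 for Sgk1 to 0.83 for Ddit4. The points share library preparation and the make-up of the 5 pieces of a mouse. Nfkbia had an r of 0.34 with Nfkbib, 0.26 with Rela, 0.23 with Nfkbiz and -0.13 with Tnfaip3 over the 37 mice. In the 24 h study alone, all pairs among Nfkbie, Nfkbiz, Tnfaip3, Nfkb1, Nfkb2 and Relb had a positive r, from 0.20 to 0.68. At 16 h alone, the same pairs ran from -0.49 to 0.715. These genes were picked after the values were seen. Pairs with Nfkbia, Nfkbib or Rela had both signs in each study.

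Beside the 9 genes, 85 others of the pathway were listed by role, and 77 of them were tested at 24 h. Of these, 19 were higher, 8 were lower and 50 did not pass, beside 5.78% higher and 5.62% lower over all genes tested. Their median log2 fold change was 0.06, beside -0.0044 over all genes. The pathway and marker genes were counted with all mice only. Like the 9, they were chosen with earlier results of these data known, so their counts and roles at 24 h are a description. The group with the largest share was that of other feedback inhibitors, with 6 higher and 1 lower of 11 tested. Zfp36, which destabilizes cytokine mRNAs, ran from 2.60 to 3.58 CPM on chow and from 4.56 to 9.34 CPM in fasted mice, a log2 fold change of 1.16 ± 0.11 (SE). Zc3h12a, an RNase that also degrades such mRNAs, rose by 0.57 ± 0.08 on the log2 scale (SE), and Socs1, an inhibitor of cytokine signalling, fell by 0.48 with an SE of 0.13. The other 4 that were higher, Otud7b, Irak3, Otulin and Tollip, had log2 fold changes between 0.21 and 0.43.

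Upstream of the inhibitors, 2 receptors were higher and 2 lower of 12 tested, among them the interleukin-1 receptor Il1r1 at 0.69 ± 0.19 on the log2 scale (SE), Tnfrsf12a at 0.60 ± 0.19 (SE) and the RNA sensor Tlr3 at -0.36 ± 0.07 (SE). Of 22 adaptors and upstream kinases, 5 were higher and 2 lower. Birc3, a ubiquitin ligase of the TNF receptor complex, stood at 0.62 ± 0.12 (SE), and Irak2, a kinase behind the interleukin-1 receptor, at 0.59 ± 0.08 (SE). Traf1 stood at -0.57 ± 0.16 (SE) and Irak4 at -0.19 ± 0.06 (SE). Among the 6 IkB kinase genes, Ikbkg, the regulatory subunit, stood at 0.13 ± 0.04 (SE) and Ikbke at -0.35 ± 0.10 (SE), and the other 4 did not pass. Of 6 other subunit and IkB genes, Nfkbil1 passed, at 0.24 ± 0.07 (SE). Of the ligands, Tnf, Tnfsf11 and Cd40lg were too low to test, and of the 6 tested, Tnfsf12 stood at -0.36 ± 0.10 (SE) and Lta was higher at a mean log2 CPM of -2.62.

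Of 18 target genes, 14 were tested at 24 h, and 3 were higher and 1 lower. Bcl2l1, which encodes the survival protein Bcl-xL, ran from 68.8 to 83.7 CPM on chow and from 105.2 to 152.1 CPM in fasted mice, a log2 fold change of 0.73 ± 0.07 (SE). The others past the threshold lay below a mean of 1 CPM and are named after their values were seen: Ccl2, a chemokine, Lcn2, the secreted protein lipocalin, and Nos2, which fell by 0.87 with an SE of 0.12. Ccl2 ran from 0 to 0.115 CPM on chow, and in fasted mice from 0.0488 to 3.37, where mice 1425 and 1453 held 358 and 387 counts and the others 6 to 64. Lcn2 ran from 0.0861 to 0.408 CPM on chow and from 0.456 to 2.57 in fasted mice, without overlap. Il6, Cxcl1, Cxcl2 and Sele were too low to test. At 16 h, 75 of the 85 were tested, and none passed in any of the 3 comparisons.

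**Figure D5:**
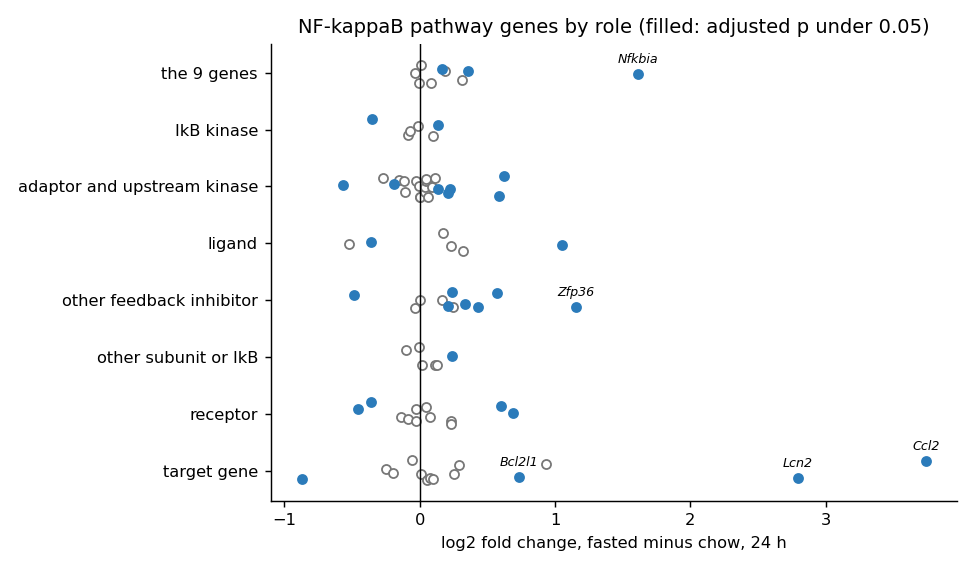
Log2 fold change, fasted minus chow at 24 h (horizontal axis), of the 9 genes and of the 77 other pathway genes tested, in rows by role; filled circles passed the threshold over all genes, and vertical scatter within a row has no meaning. Nfkbia at 1.61 and Zfp36 at 1.16 stand apart in their rows, and Ccl2 and Lcn2 rest on low counts.

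In pieces of brain, fewer cells of a type, less RNA per cell and a change in single marker genes cannot be told apart. Markers of cell types known for NF-kappaB signalling were lower or not past the threshold at 24 h, where 5.62% of all genes were lower. Of the microglia markers, 4 of 9 tested were lower and none higher, and their summed level ran from 143.9 to 211.9 CPM on chow and from 131.9 to 198.6 CPM in fasted mice. Of the endothelial markers, 4 of 8 were lower, with sums from 212.8 to 329.0 CPM on chow and from 187.9 to 266.9 CPM in fasted mice. Of the pericyte and smooth muscle markers, 3 of 5 were lower, with sums from 176.4 to 262.8 CPM and from 137.4 to 201.2 CPM. Of the astrocyte markers, 2 of 6 were lower, of the oligodendrocyte markers 1 of 6 was higher, of 5 leukocyte markers tested 1 was lower, and no marker of neurons, red blood cells or choroid plexus passed. Markers that did not pass had log2 fold changes from -0.20 to 0.23 in microglia and from 0.01 to 0.20 in endothelium. In astrocytes they ran from 0.045 to 0.22, and in pericytes and smooth muscle from -0.33 to -0.13. The part of these differences in the values of the 9 genes was not tested.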

How the data were processed

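Total RNA of 5 brain pieces per mouse was depleted of rRNA, made into libraries with NEBNext kits and sequenced. Base calling by the authors used bcl2fastq 2.20.0 and alignment used STAR 2.7.3a (GeneCounts, GRCm39), and the authors deposited raw counts per Ensembl gene, neither normalized nor filtered, for 57010 genes in 5 columns per mouse. The strand of the counts and the annotation are not given in the sources used here. Column headings gave the mouse, not the region, and no column was left unmapped.

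Here, counts were summed over the 5 columns of a mouse, low columns included. All rows name a gene, and 56310 had a symbol in GENCODE vM39. Diets were tested by the quasi-likelihood method of edgeR 4.0.16 (R 4.3.3) after TMM scaling and filterByExpr, at an adjusted p of 0.05 (Benjamini-Hochberg over all genes tested). The 3 diets at 16 h shared one fit, and the difference between studies used all 37 mice. Deposited total counts per mouse set the precision, and p-values measure the spread between mice, with cage mates at 16 h counted as separate mice. Low columns had under 1000000 counts or under 16000 genes expected in a draw of 500000.

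Alternatives were DESeq2 1.42.0, limma 3.58.1, other size factors, filters, thresholds, columns, covariates and units, and each mouse left out. On simulated counts for 9 chow against 10 fasted mice (28811 genes), 62 of 66 genes changed 3-fold, 33 of 67 changed 1.5-fold and 2 of 67 changed 1.2-fold were recovered, with 2 false calls. For 6 fasted against 6 chow mice within a simulated fit of all 18 mice at 16 h (29478 genes), 63 of 66, 41 of 67 and 13 of 67 were recovered. There were 8 false calls, and cage mates were drawn as independent. Few genes were changed in the simulation, while 11.4% of the genes tested passed in the 24 h data. The adjusted threshold is stricter when few genes change, so the 9 against 10 rates are not those of the real 24 h test.

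The 9 genes and all lists (pathway genes, cell markers) were chosen with earlier results of these data known. All 9 genes are described. Of the pathway list, the 2 largest rises and 2 largest falls per role were named among genes past the threshold at 24 h whose mean log2 CPM was 0 or more. Likeness was Pearson's r with the gene of the largest change, for the 5 highest genes. Promoter windows were read from GRCm39 with Python 3.11.15.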

Additional observations from a re-analysis of the deposited data

Results flagged for a closer look

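Among 45 sets of mice (9 genes in 5 groups), 5 held a mouse far from the others of its group, and chance alone gives about 1 in 20. Nfkbia stood at 19.4 CPM in chow mouse 1423 at 24 h, with the next chow mouse at 13.8. This mouse has one library in the range of fasted mice and is one of those whose notes record an exchange of tubes. Without it the log2 fold change of Nfkbia was 1.71. Chow mouse 6 at 16 h was the highest for Nfkbie, at 4.25 CPM, and for Rela, at 25.8 CPM with the next at 22.9. Chow mouse 1422 at 24 h was the highest for Nfkbie, at 3.20 CPM with the next at 2.53. Fasted mouse 1453 at 24 h was the highest for Relb, at 5.01 CPM with the next at 4.10, and this mouse also held the most Ccl2 counts.

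The effect of fasting on Nfkbia differed between the studies by 1.43 on the log2 scale, from the test of the difference itself. It was 1.57 without mice 1423, 1454 and 1455 and 1.38 with only the columns above the limits.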

How the results depend on the processing

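The log2 fold change of Nfkbia at 24 h kept its direction and its side of the threshold under all 28 alternatives, between 1.55 (limma) and 1.75 (without mice 1423, 1454 and 1455). The number of the 9 genes past the threshold at 24 h was 3, and it ran from 2 to 4, with 2 under no filter or limma and 4 at a threshold of 0.1. With one mouse left out it ran from 2 to 4. Rela was lost in each case of 2, and Nfkbib was added in each case of 4. The cause was not tested. Among all 252 values of the 9 genes under alternatives at 24 h, 12 changed side and 25 changed sign, all of the latter in genes not past the threshold. At 16 h none of the 9 passed under any of the 27 alternatives, and 5, 18 and 9 of 243 values changed sign for fasted against chow, HFD against chow and fasted against HFD. Over all genes, fasted against HFD at 16 h gave 65 calls, 26 with no filter, 354 with DESeq2, 209 at a threshold of 0.1, 0 with cage sums, 2.85 times as many with limma, and from 0 to 1.66 times as many with one mouse left out. Mice of different groups share no numbers that could pair them. With the round of cages as a covariate at 16 h, none of the 9 passed and fasted against HFD gave 89 calls. Depth was lowest for Nfkbie, whose lowest and highest counts in a mouse were below those of the other 8.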
